A study of Glycine max with 6 samples.

Results

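Aquaporins are membrane channels that let water, and in some cases other small neutral molecules, pass down a gradient. Genes were taken as aquaporins when the protein description in the deposited annotation contained aquaporin, tonoplast intrinsic, plasma membrane intrinsic or nodulin-26. This rule found 51 of the 36827 soybean (Glycine max) genes in the table. RNA was sequenced from trifoliolate leaves at germination day 30, with 3 libraries labelled GmRAV1-ox (genotype GmRAV1) and 3 labelled DN50 (genotype wild type). The suffix is read here as overexpression. The number of transgenic lines, the promoter that drives the transgene and any pooling of plants are not stated in the sources used. The replicates are not described as separate plants, so each p-value reflects the spread between these samples, which may be technical.

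Plant aquaporins fall into families, some of which are named for the membrane in which they were first placed. Plasma membrane intrinsic proteins (PIPs) carry water, and some carry carbon dioxide or hydrogen peroxide, across the cell surface. PIP1 and PIP2 proteins assemble into mixed tetramers, and in maize PIP1 proteins need a PIP2 partner to reach the plasma membrane. Tonoplast intrinsic proteins (TIPs) do the same work at the vacuole, the large store that sets cell turgor, and some pass ammonia or urea. Nodulin-26-like intrinsic proteins (NIPs) are named after the soybean protein of the membrane around nitrogen-fixing bacteroids, and members in other plants carry boric acid, silicic acid or glycerol. Small basic intrinsic proteins (SIPs) sit in the endoplasmic reticulum in Arabidopsis. The uncategorized X intrinsic proteins (XIPs) are absent from Arabidopsis.

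By type, the 51 genes comprised 18 PIP, 12 TIP, 13 NIP, 5 SIP and 2 XIP genes and 1 gene that could not be typed. Of the PIP genes, 7 were PIP1, 10 were PIP2 and 1 had no subtype. The type came from the RefSeq gene name, then from the KEGG class where it matched the description. For 5 genes this differed from the description. Glyma03g34310.1 and Glyma13g40820.1 are described as nodulin-26, yet KEGG places them among TIPs and RefSeq names them as TIP1 genes. Glyma12g02640.1 is described as a TIP1-2-like protein and Glyma11g10360.1 as PIP2-5-like, and RefSeq names them as XIP genes. Glyma12g02650.1 stayed untyped because its description names a PIP and its KEGG class a TIP. A further 18 genes carry a KEGG aquaporin class but a description that the rule does not match, and they are kept apart.

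The 6 libraries held between 7208496 and 7684540 estimated counts. On the first principal component of all genes (62.6% of the variance) replicate 3 labelled GmRAV1-ox, at 16.5, lay among the libraries labelled DN50 (10.3 to 81.0), away from replicates 1 and 2 labelled GmRAV1-ox (-71.6 and -100). Where leaving that library out changes a call, the value without it is given too. The files do not say which gene is the transgene. The 3 tested genes described as RAV-like or TEM1-like had log2 fold changes of -0.26 to -0.04, and none passed the threshold. Glyma01g22260.1, one of them, had 18.4, 15.3 and 27.5 RPKM in the libraries labelled GmRAV1-ox, against 19.4, 17.6 and 26.4 RPKM in those labelled DN50. Glyma20g32730.1, also TEM1-like, had 45 counts in all and was not tested with 6 libraries. It had 1.49, 2.65 and 0.279 RPKM in the libraries labelled GmRAV1-ox, against 0.149, 0.551 and 0.383 RPKM in those labelled DN50. Replicates 1 and 2 labelled GmRAV1-ox thus lay above all DN50 libraries and replicate 3 inside their range. Without replicate 3 this gene was higher (log2 fold change 2.44, adjusted p = 0.0273, edgeR, Benjamini-Hochberg) and the other 3 did not pass. Every direction below refers to libraries as labelled. Leaf mesophyll markers (chlorophyll a-b binding proteins and the small subunit of Rubisco) were all tested, 30 of 30. Their summed level was 80806 to 136178 RPKM in libraries labelled GmRAV1-ox and 94184 to 153653 RPKM in those labelled DN50. By edgeR none of them passed the adjusted threshold and 5 were lower at an unadjusted p under 0.05 (16.7%, where 10.7% of all genes were), with a median log2 fold change of -0.60. DESeq2 called 2 of them lower, where it called 2.73% of all genes lower, and limma called 0. Without replicate 3 labelled GmRAV1-ox, edgeR called 5 of the markers lower (16.7%, where 9.66% of all genes were). Their part in the aquaporin results was not tested. Seed markers (oleosin and beta-conglycinin) summed to 0.236 to 2.8 RPKM in libraries labelled GmRAV1-ox and 0.698 to 1.58 RPKM in those labelled DN50. Since these are whole leaves, fewer cells of a type and less RNA per cell cannot be told apart.

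Levels are given as RPKM, the estimated count per kilobase of coding length, scaled to the library total and by TMM factors. Of the 51 genes, 23 averaged at least 10 RPKM over the 6 libraries, 9 averaged 1 to 10 RPKM and 19 averaged under 1 RPKM. Within these 51 genes the level rested on few. The 5 highest held 78.1% of the summed aquaporin level. The TIP1 gene Glyma03g34310.1 alone held 26.9% and ranked 131 among all genes. It was followed by the PIP1 gene Glyma14g06680.1 (20.9%), the PIP2 gene Glyma19g36530.1 (16.5%) and the PIP1 genes Glyma08g01860.1 (8.62%) and Glyma02g42220.1 (5.23%). Outside the description rule, the TIP gene Glyma19g37000.1 averaged 833 RPKM over the 6 libraries, above Glyma14g06680.1 at 770.0 RPKM. Counts sufficed for a test in 31 genes. The other 20 had at most 43 counts over all libraries, against at least 66 for the genes tested.

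**Figure D1:**
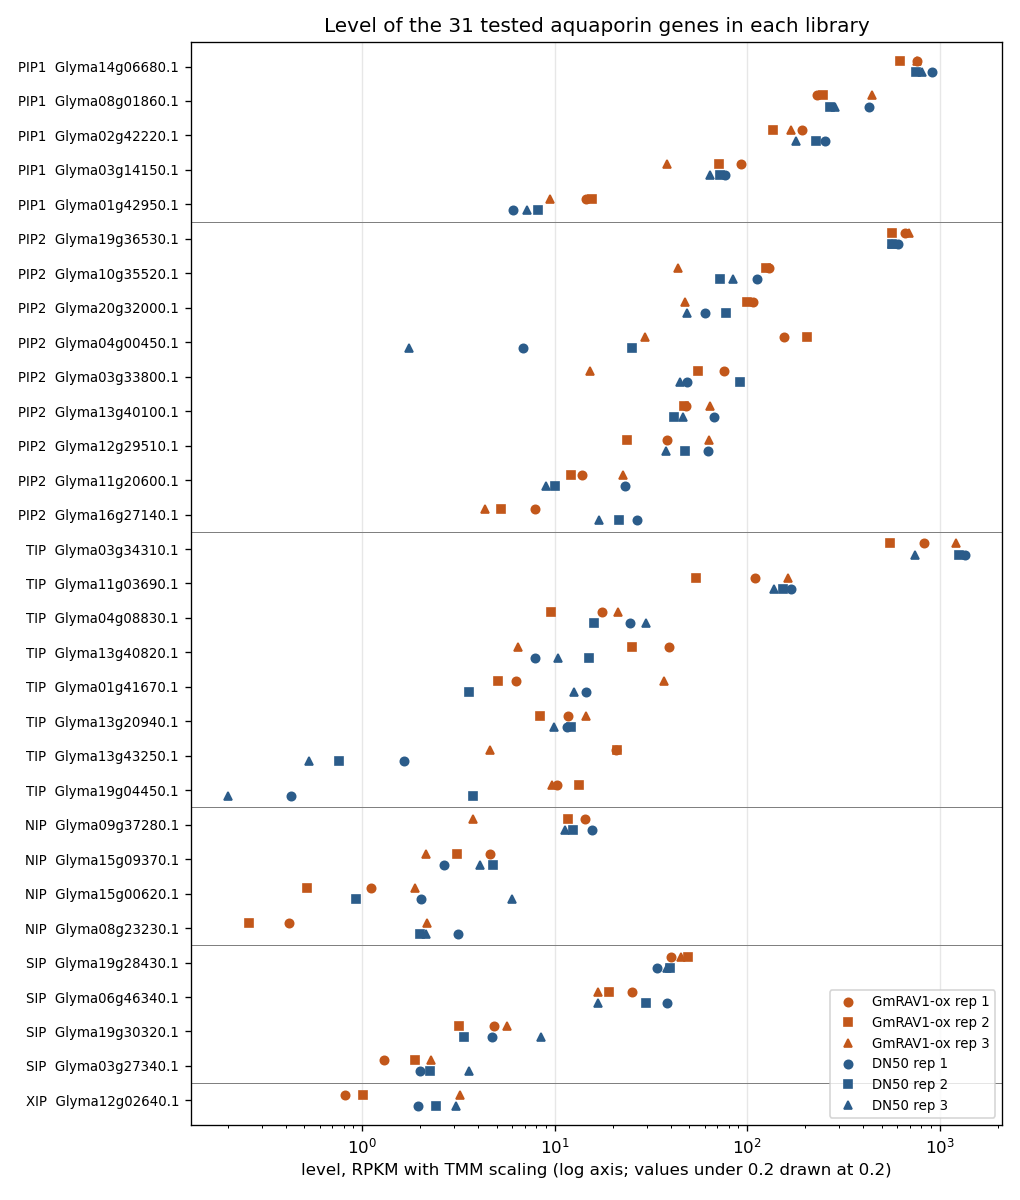
Level of each of the 31 tested aquaporin genes in each library (RPKM with TMM scaling, log axis), grouped by type, with GmRAV1-ox libraries in orange above DN50 libraries in blue and a symbol for each replicate number. The 5 highest genes overlap between the groups, while Glyma16g27140.1 lies lower in all 3 GmRAV1-ox libraries and Glyma04g00450.1, Glyma13g43250.1 and Glyma19g04450.1 lie higher.

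In the comparison of libraries labelled GmRAV1-ox with those labelled DN50, 1 of 31 tested aquaporin genes passed an adjusted p of 0.05 and it was lower (3.23%, where 0.7% of all 26272 tested genes passed, 0.122% higher and 0.579% lower). At an unadjusted p under 0.05, 4 aquaporin genes were higher and 1 was lower (12.9% and 3.23%, where 10.6% and 10.7% of all genes were). All 3 libraries labelled GmRAV1-ox lay above all 3 labelled DN50 for 5 aquaporin genes (16.1%) and below them for 1 (3.23%), where 12.7% and 13.3% of all genes did so. The shares of higher genes were near the background, and each share of lower genes rests on 1 gene. The median log2 fold change was -0.20 over the 31 genes and 0.01 over all genes tested. Without TMM factors these medians became -0.01 and 0.20, a shift of all genes together.

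The summed level of all 51 genes was 3668, 3016 and 3963 RPKM in libraries labelled GmRAV1-ox, against 4392, 3849 and 3235 RPKM in those labelled DN50. The ratio of the means was 0.928, and 1.06 in the deposited FPKM, with overlapping groups. The plasma membrane water channels formed the highest part of this pool. Summed over the 18 PIP genes, the level was 2528, 2232 and 2404 RPKM in libraries labelled GmRAV1-ox, against 2701, 2280 and 2197 RPKM in libraries labelled DN50. The means were 2388 ± 149 and 2393 ± 270 RPKM (SD, n = 3 each), a ratio of 0.998, which became 1.14 in the deposited FPKM. The groups overlapped.

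Within the PIPs, the PIP1 and PIP2 sums are given apart. The 7 PIP1 genes summed to 1295, 1095 and 1419 RPKM in libraries labelled GmRAV1-ox, against 1683, 1330 and 1342 RPKM in those labelled DN50, a ratio of 0.875 that became 0.996 in the deposited FPKM. The 10 PIP2 genes summed to 1233, 1136 and 985 RPKM in libraries labelled GmRAV1-ox, against 1018, 950.0 and 855 RPKM in those labelled DN50, a ratio of 1.19 that became 1.37 in the deposited FPKM. Replicates 1 and 2 labelled GmRAV1-ox were above every DN50 library in the PIP2 sum, and replicate 3 was inside their range. The PIP2 sums averaged 1118 RPKM in libraries labelled GmRAV1-ox and 941 RPKM in those labelled DN50. Most of this difference came from Glyma04g00450.1, which averaged 130.3 and 11.3 RPKM and did not pass the threshold by edgeR. No p is attached to these sums, since they are totals over chosen genes.

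Among PIP1 genes, the most abundant did not pass the test. Glyma14g06680.1, described as a PIP-type 7a-like channel, had 764, 622 and 760.1 RPKM in libraries labelled GmRAV1-ox, against 915, 751 and 807 RPKM in those labelled DN50. Its log2 fold change was -0.20 (SE 0.22, adjusted p = 0.63 by edgeR, Benjamini-Hochberg). The groups overlapped narrowly. Glyma08g01860.1, a PIP1-2 gene, had 229.6, 248 and 443 RPKM in libraries labelled GmRAV1-ox, against 431, 269.7 and 285 RPKM in those labelled DN50 (log2 fold change -0.10, SE 0.32). Glyma02g42220.1, named PIP1-10 in RefSeq, had 193, 136 and 168 RPKM in libraries labelled GmRAV1-ox, against 253, 228 and 179 RPKM in those labelled DN50 (log2 fold change -0.40, SE 0.22). Replicate 3 labelled GmRAV1-ox was the highest of the 6 libraries for Glyma08g01860.1, and for the other genes it was between replicates 1 and 2 of its label. The counts of all 3 genes were not whole in any library, so reads may be shared with similar genes. Which genes share them was not tested.

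Among the less abundant PIP1 genes, 1 did not overlap between the groups. Glyma01g42950.1, named PIP1-3, had 14.6, 15.7 and 9.50 RPKM in libraries labelled GmRAV1-ox, against 6.05, 8.23 and 7.17 RPKM in those labelled DN50. All 3 values of the first group exceeded all 3 of the second. The counts of this gene were not whole in 3 libraries, so reads may be shared with similar genes. The estimate was 1.86-fold (log2 fold change 0.90, SE 0.25), which did not pass adjustment (adjusted p = 0.123, edgeR, Benjamini-Hochberg). It passed without replicate 3 labelled GmRAV1-ox (log2 fold change 1.07, adjusted p = 0.0141 by edgeR). Glyma03g14150.1, named PIP1-1, had 93.1, 71.6 and 38.3 RPKM in libraries labelled GmRAV1-ox, against 76.7, 72.3 and 63.9 RPKM in those labelled DN50, with the lowest value in replicate 3 labelled GmRAV1-ox. The other 2 PIP1 genes had too few counts to be tested.

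The gene that passed the threshold was a PIP2 channel, a type that moves water efficiently across the plasma membrane. Glyma16g27140.1, described as PIP2-2-like and named PIP2-11 in RefSeq, had 7.87, 5.25 and 4.35 RPKM in libraries labelled GmRAV1-ox, against 26.8, 21.5 and 17.0 RPKM in those labelled DN50. The highest library labelled GmRAV1-ox stood well below the lowest labelled DN50. The means were 5.82 ± 1.83 and 21.8 ± 4.90 RPKM (SD, n = 3 each). The gene fell to 0.270 of the DN50 level (log2 fold change -1.89, SE 0.28, 95% interval -2.53 to -1.25, adjusted p = 0.0376 by edgeR, Benjamini-Hochberg). It rested on 117 counts in libraries labelled GmRAV1-ox and 391 in those labelled DN50. Its log2 fold change stayed between -2.16 and -1.73 when each library was left out in turn. The adjusted p (edgeR, Benjamini-Hochberg) was 0.00548 without replicate 3 labelled GmRAV1-ox and between 0.0648 and 0.206 without each of the other 5 libraries.

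The counts of Glyma16g27140.1 were not whole numbers in any of the 6 libraries, so its reads may be shared with similar genes and its value is uncertain to that degree. Glyma16g27130.1, named PIP2-10, and Glyma02g08110.1 share a protein record in the deposited annotation, lie outside the description rule and had counts that were not whole in all 6 libraries. These genes were chosen after their values were seen. Glyma16g27130.1 had 34.3, 17.5 and 29.3 RPKM in libraries labelled GmRAV1-ox, against 38.2, 52.2 and 39.7 RPKM in those labelled DN50 (log2 fold change -0.68; adjusted p = 0.194, edgeR with Benjamini-Hochberg adjustment). Glyma02g08110.1 had 18.9, 12.8 and 16.7 RPKM in libraries labelled GmRAV1-ox, against 26.6, 34.4 and 25.4 RPKM in those labelled DN50 (log2 fold change -0.83; adjusted p = 0.104, edgeR with Benjamini-Hochberg adjustment). Neither passed the threshold with all libraries, and in both genes the groups did not overlap. Glyma02g08110.1 passed without replicate 3 labelled GmRAV1-ox (log2 fold change -0.88, adjusted p = 0.0302 by edgeR). Summed with Glyma02g08120.1, named PIP2-12, these 4 genes gave 61.3, 36.0 and 50.4 RPKM in libraries labelled GmRAV1-ox, against 92.7, 108 and 82.5 RPKM in those labelled DN50. The ratio of the sums was 0.521. Most of this total came from Glyma16g27130.1 and Glyma02g08110.1, which separated the groups on their own, and the part of read sharing in the result was not tested.

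A second PIP2 gene differed by a large estimate with a large error. Glyma04g00450.1, described as PIP2-7, had 156, 205 and 29.3 RPKM in libraries labelled GmRAV1-ox, against 6.85, 25.3 and 1.75 RPKM in those labelled DN50. The groups did not overlap, but replicate 3 labelled GmRAV1-ox was only just above replicate 2 labelled DN50. The estimate was 11.6-fold (log2 fold change 3.53, SE 1.07, 95% interval 0.96 to 6.11), on whole counts of 2621 in libraries labelled GmRAV1-ox and 196 in those labelled DN50. It did not pass adjustment (unadjusted p = 0.0147, adjusted p = 0.15 by edgeR, Benjamini-Hochberg), nor without replicate 3 labelled GmRAV1-ox (log2 fold change 3.99, adjusted p = 0.0626 by edgeR). The DESeq2 Wald test called it higher with all 6 libraries (adjusted p = 0.0449), where DESeq2 called 4.8% of all genes, 2.07% higher and 2.73% lower. In replicate 2 labelled GmRAV1-ox this gene held 6.81% of the summed aquaporin level, and in replicate 3 labelled DN50 0.054%.

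The main PIP2 gene of these leaves was close between the groups. Glyma19g36530.1, named PIP2-8, had 658, 562 and 695 RPKM in libraries labelled GmRAV1-ox, against 608, 562 and 564 RPKM in those labelled DN50 (log2 fold change 0.15, 95% interval -0.33 to 0.62). Glyma10g35520.1, described as PIP2-1-like, had 129, 125 and 43.5 RPKM in libraries labelled GmRAV1-ox, against 112, 72.4 and 84.6 RPKM in those labelled DN50. Glyma20g32000.1, named PIP2-14, had 107, 99.6 and 47.2 RPKM in libraries labelled GmRAV1-ox, against 60.4, 77.1 and 48.9 RPKM in those labelled DN50. In the last 2 genes replicates 1 and 2 labelled GmRAV1-ox exceeded all DN50 libraries and replicate 3 fell below all of them. Both had counts not whole in 5 libraries, so reads may be shared with similar genes. Without replicate 3 labelled GmRAV1-ox, Glyma20g32000.1 passed the threshold (log2 fold change 0.72, adjusted p = 0.047 by edgeR with Benjamini-Hochberg adjustment) and Glyma10g35520.1 did not. The other 4 tested PIP2 genes (Glyma03g33800.1, Glyma13g40100.1, Glyma12g29510.1 and Glyma11g20600.1) had log2 fold changes of -0.34 to 0.20 with overlapping groups.

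**Figure D2:**
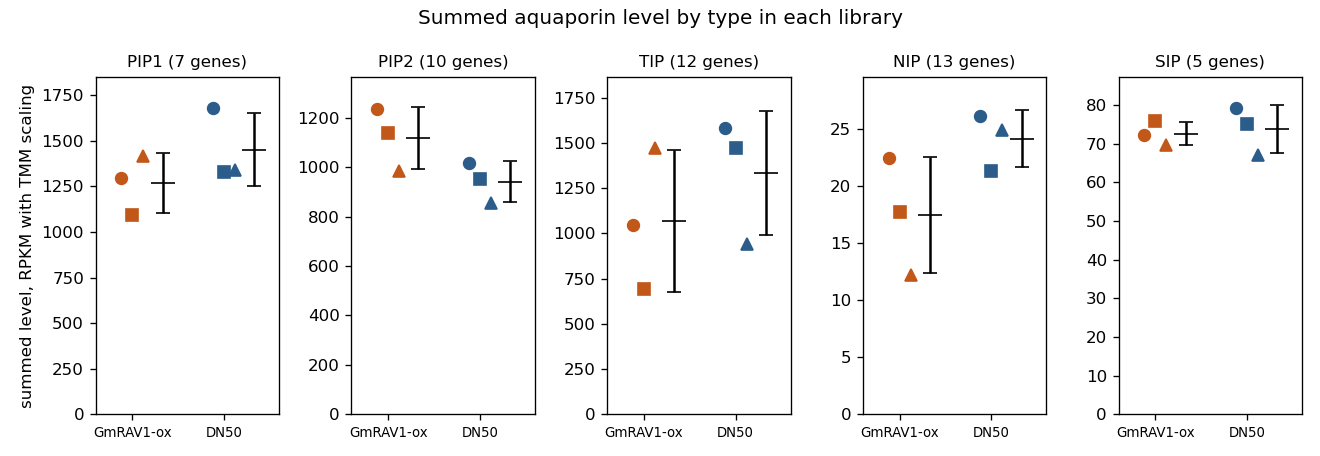
Summed level (RPKM with TMM scaling, axes from 0) of the PIP1, PIP2, TIP, NIP and SIP genes in each library, with GmRAV1-ox left of DN50 in each panel, circles, squares and triangles for replicates 1, 2 and 3, and bars for the mean ± SD of 3 libraries. The TIP sums range from 689.9 to 1474 RPKM in GmRAV1-ox libraries and from 942 to 1584 RPKM in DN50 libraries, while the SIP sums of all 6 libraries lie between 67.0 and 79.3 RPKM.

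The vacuolar channels varied more from library to library than the PIPs. The 12 TIP genes summed to 1044, 689.9 and 1474 RPKM in libraries labelled GmRAV1-ox, against 1584, 1470 and 942 RPKM in those labelled DN50. The means were 1069 ± 393 and 1332 ± 342 RPKM (SD, n = 3 each), a ratio of 0.803 with overlapping groups. The share of TIPs in the summed aquaporin level was 28.5%, 22.9% and 37.2% in libraries labelled GmRAV1-ox, against 36.1%, 38.2% and 29.1% in those labelled DN50. In both groups replicate 3 stood apart from replicates 1 and 2.

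These TIP sums mostly followed the most abundant gene. Glyma03g34310.1, a TIP1 gene, had 827, 551 and 1216 RPKM in libraries labelled GmRAV1-ox, against 1353, 1262 and 739 RPKM in those labelled DN50 (log2 fold change -0.37, SE 0.36). Glyma11g03690.1, described as a tonoplast intrinsic protein, had 109, 54.2 and 162 RPKM in libraries labelled GmRAV1-ox, against 169, 154 and 137 RPKM in those labelled DN50 (log2 fold change -0.50, SE 0.36). Neither passed the threshold, with or without replicate 3 labelled GmRAV1-ox. The TIP4-1 gene Glyma04g08830.1 also overlapped between the groups, at 17.5, 9.59 and 21.3 RPKM in libraries labelled GmRAV1-ox and 24.6, 15.9 and 29.8 RPKM in those labelled DN50. Glyma13g20940.1, a TIP1-1-like gene, was near level between the groups (log2 fold change 0.03, 95% interval -0.54 to 0.60).

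The TIP2 genes at low level included the largest estimate among the 31 tested genes. TIP2 proteins of Arabidopsis carry ammonia besides water. Glyma13g43250.1, described as TIP2-1, had 20.9, 21.0 and 4.63 RPKM in libraries labelled GmRAV1-ox, against 1.65, 0.762 and 0.530 RPKM in those labelled DN50. Every library labelled GmRAV1-ox lay above every library labelled DN50. The estimate was 15.9-fold (log2 fold change 3.99, SE 0.71, 95% interval 2.34 to 5.65), from 277 counts in libraries labelled GmRAV1-ox and 15.2 in those labelled DN50. It did not pass the threshold (adjusted p = 0.0635, edgeR, Benjamini-Hochberg) and passed without replicate 3 labelled GmRAV1-ox (log2 fold change 4.41, adjusted p = 0.00132). DESeq2 called it higher with all 6 libraries (adjusted p = 4.46e-06).

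Glyma13g43250.1 had counts that were not whole in 5 libraries, and so did the TIP2-1-like gene Glyma19g04450.1. A similarly named gene outside the rule, Glyma15g02090.1 (TIP2-2 in RefSeq), was far more abundant, with counts not whole in 1 library. Which genes share reads was not tested. Glyma15g02090.1 had 96.2, 88.5 and 98.0 RPKM in libraries labelled GmRAV1-ox, against 95.6, 92.4 and 57.2 RPKM in those labelled DN50. Glyma13g43250.1 and Glyma15g02090.1, a pair chosen after its values were seen, summed to 117, 109.5 and 103 RPKM in libraries labelled GmRAV1-ox. In those labelled DN50 the sums were 97.2, 93.2 and 57.7 RPKM, a ratio of 1.33. The mean of the pair was 109.8 ± 7.23 RPKM in libraries labelled GmRAV1-ox and 82.7 ± 21.7 RPKM in those labelled DN50, and that of Glyma13g43250.1 was 15.5 ± 9.42 and 0.980 ± 0.590 RPKM (SD, n = 3 each).

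Glyma19g04450.1, described as TIP2-1-like, had 10.3, 13.4 and 9.65 RPKM in libraries labelled GmRAV1-ox, against 0.429, 3.77 and 0 RPKM in those labelled DN50. The groups did not overlap, and replicate 2 labelled DN50 stood above the other DN50 libraries. Counts of Glyma19g04450.1 were not whole in 5 libraries. In replicate 1 labelled DN50 it had 2.07 counts and Glyma13g43250.1 had 7.93, and in replicate 3 labelled GmRAV1-ox 48.3 and 23.7. Reads may be shared between these genes, so they may not be independent, and this was not tested. The log2 fold change was 2.99 (SE 0.88, 7.92-fold, 188 counts in libraries labelled GmRAV1-ox and 20.8 in those labelled DN50). It did not pass adjustment (adjusted p = 0.141, edgeR, Benjamini-Hochberg). Without replicate 2 labelled DN50 it did (log2 fold change 5.64, adjusted p = 0.0359 by edgeR). That replicate held 18.8 of the DN50 counts, so this fit compared against only 2.07 and 0 counts in replicates 1 and 3. DESeq2 called the gene higher with all 6 libraries (adjusted p = 0.0189).

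A further pair of TIP genes depended on replicate 3. Glyma13g40820.1, a TIP1 gene by RefSeq, had 39.3, 25.3 and 6.43 RPKM in libraries labelled GmRAV1-ox, against 7.87, 15.1 and 10.4 RPKM in those labelled DN50. It passed the threshold only in the fit without replicate 3 labelled GmRAV1-ox (log2 fold change 1.52, adjusted p = 0.0102 by edgeR with Benjamini-Hochberg adjustment), against 1.10 with all libraries. Glyma01g41670.1, named after RB7, a root-preferential TIP of tobacco, had 6.28, 5.05 and 36.8 RPKM in libraries labelled GmRAV1-ox, against 14.5, 3.59 and 12.6 RPKM in those labelled DN50. Its estimate was 0.64 with all libraries and -0.86 without replicate 3 labelled GmRAV1-ox, and neither passed. The other 4 TIP genes had too few counts for a test.

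Of the 13 NIP genes found by the description, 9 had too few counts for a test. The 13 genes summed to 22.4, 17.7 and 12.2 RPKM in libraries labelled GmRAV1-ox, against 26.1, 21.3 and 24.9 RPKM in those labelled DN50 (ratio 0.723). Glyma08g12650.1, described as the nodulin-26 precursor, had 4 counts in libraries labelled GmRAV1-ox and 2 in those labelled DN50. The nodule marker nodulin-16 was at 0 in all libraries labelled GmRAV1-ox and at 0.984 RPKM in replicate 2 labelled DN50 alone. The whole nodule list, which also holds leghemoglobin reductases, summed to 543 to 749 RPKM in libraries labelled GmRAV1-ox. In those labelled DN50 it summed to 529 to 948 RPKM.

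NIP genes outside the rule were more abundant, Glyma13g29690.1 at a mean of 33 RPKM and Glyma18g49410.1 at 26.6 RPKM over the 6 libraries. Of the 13 NIP genes the most abundant was Glyma09g37280.1, a NIP2-1-like gene of a group known as silicic acid channels in rice. It had 14.3, 11.7 and 3.74 RPKM in libraries labelled GmRAV1-ox, against 15.6, 12.5 and 11.3 RPKM in those labelled DN50 (log2 fold change -0.39, SE 0.43). Replicate 3 labelled GmRAV1-ox was the low one. Glyma15g09370.1, a nodulin-26-like gene, had 4.59, 3.09 and 2.14 RPKM in libraries labelled GmRAV1-ox, against 2.67, 4.76 and 4.08 RPKM in those labelled DN50, which overlapped.

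The 2 tested NIP6 genes are described as NIP6-1-like, after the Arabidopsis boric acid channel. Glyma08g23230.1, named NIP6-2, had 0.415, 0.257 and 2.18 RPKM in libraries labelled GmRAV1-ox, against 3.16, 2.00 and 2.14 RPKM in those labelled DN50. It did not pass with all libraries (log2 fold change -1.38, adjusted p = 0.294) and did without replicate 3 labelled GmRAV1-ox (log2 fold change -2.81, adjusted p = 0.0151, both by edgeR, Benjamini-Hochberg). With all libraries it rested on 19 counts in libraries labelled GmRAV1-ox and 47 in those labelled DN50. The call without replicate 3 rested on only 3 and 2 counts in replicates 1 and 2 labelled GmRAV1-ox. Glyma15g00620.1, named NIP6-3, had 1.11, 0.518 and 1.88 RPKM in libraries labelled GmRAV1-ox, against 2.01, 0.930 and 6.03 RPKM in those labelled DN50, with overlapping groups.

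The SIP sum stayed within a narrow range, with 72.2, 75.9 and 69.8 RPKM in libraries labelled GmRAV1-ox, against 79.3, 75.2 and 67.0 RPKM in those labelled DN50 (ratio 0.983). Glyma19g28430.1, a SIP1-2-like gene, had 40.2, 49.0 and 45.0 RPKM in libraries labelled GmRAV1-ox, against 33.9, 39.5 and 38.2 RPKM in those labelled DN50. The groups were adjacent without overlap, and the log2 fold change of 0.27 (SE 0.15) did not pass (adjusted p = 0.339, edgeR with Benjamini-Hochberg adjustment). Glyma06g46340.1, a SIP1-1-like gene, had 25.3, 19.2 and 16.7 RPKM in libraries labelled GmRAV1-ox, against 38.5, 29.9 and 16.8 RPKM in those labelled DN50 (log2 fold change -0.47, SE 0.31). The SIP2-1-like genes Glyma19g30320.1 and Glyma03g27340.1 had log2 fold changes of -0.29 and -0.53 with overlapping groups. The XIP gene Glyma12g02640.1 had 0.814, 1.01 and 3.21 RPKM in libraries labelled GmRAV1-ox, against 1.96, 2.42 and 3.08 RPKM in those labelled DN50, and did not pass either.

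**Figure D3:**
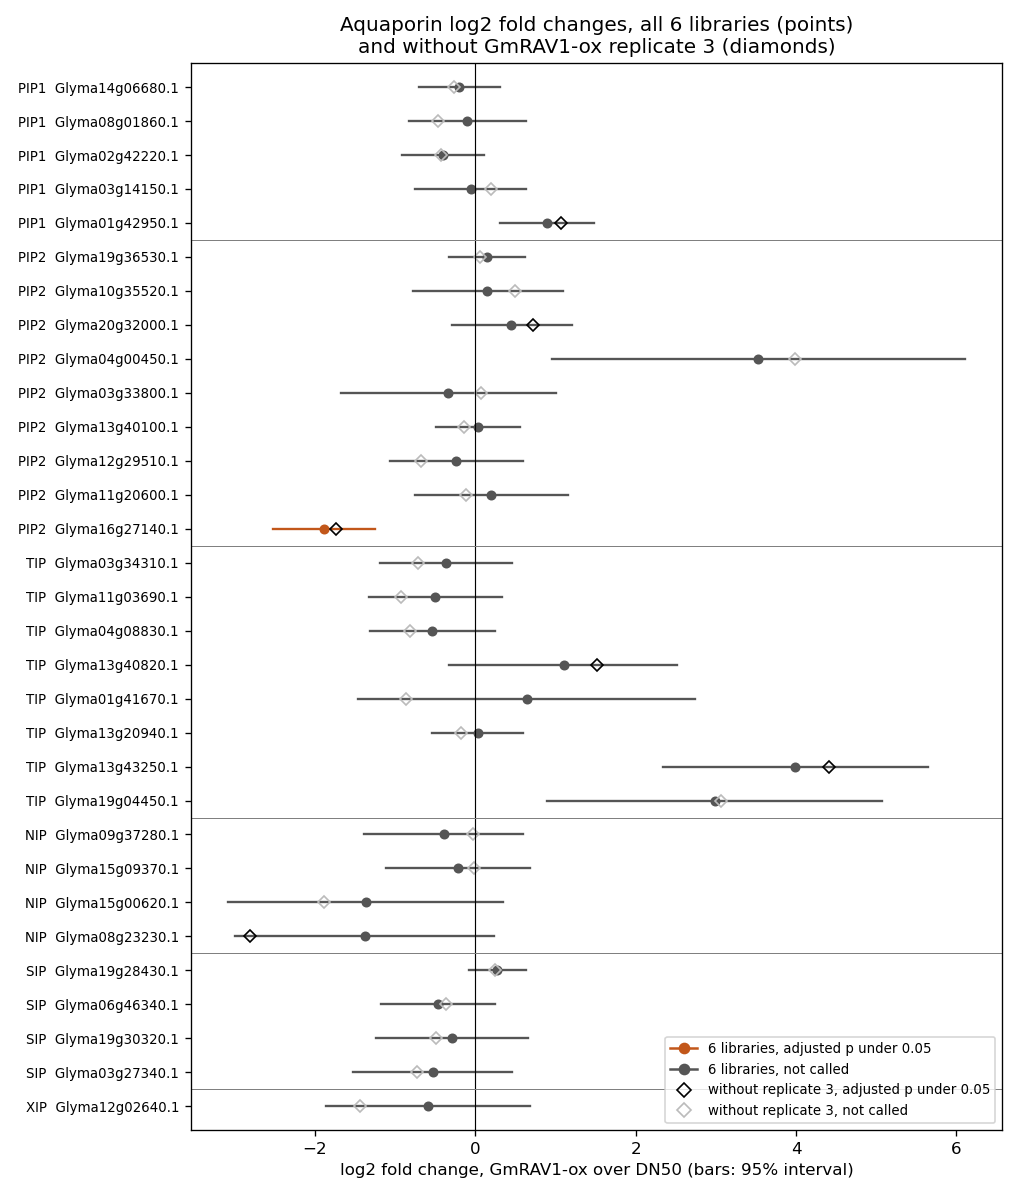
Log2 fold change of GmRAV1-ox over DN50 for the 31 tested aquaporin genes by edgeR, with points and 95% intervals for all 6 libraries (orange where the adjusted p is under 0.05) and diamonds for the fit without GmRAV1-ox replicate 3 (black where the adjusted p is under 0.05). Glyma16g27140.1 is past the threshold in both fits, and 5 more genes are past it only without replicate 3.

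Leaving out replicate 3 labelled GmRAV1-ox raised the count to 6 of 31 aquaporin genes, 4 higher and 2 lower (12.9% and 6.45%, where 8.62% and 9.66% of the 27657 genes tested passed in each direction, 18.3% in all). The aquaporin share of 19.4% was therefore near that of all genes. The higher genes were Glyma01g42950.1, Glyma20g32000.1, Glyma13g40820.1 and Glyma13g43250.1, and the lower genes were Glyma16g27140.1 and Glyma08g23230.1. Of these only Glyma16g27140.1 also passed with all 6 libraries.

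The 31 genes were also placed library by library. In replicate 1 labelled GmRAV1-ox, 10 genes were above the range of the 3 DN50 libraries, 15 inside it and 6 below it. In replicate 2, 8 were above, 8 inside and 15 below. In replicate 3, 11 were above, 10 inside and 10 below. The share inside was thus 32.3% in replicate 3, where it was 43.4% over all tested genes. In replicates 1 and 2 it was 48.4% and 25.8% for aquaporin genes and 33.8% and 28.7% over all genes. Of all 26272 tested genes, 8676, 9336 and 7527 were above the DN50 range in replicates 1, 2 and 3 labelled GmRAV1-ox. Below that range were 8716, 9400 and 7330 genes. These counts and shares are descriptions, and the differences were not tested.

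**Figure D4:**
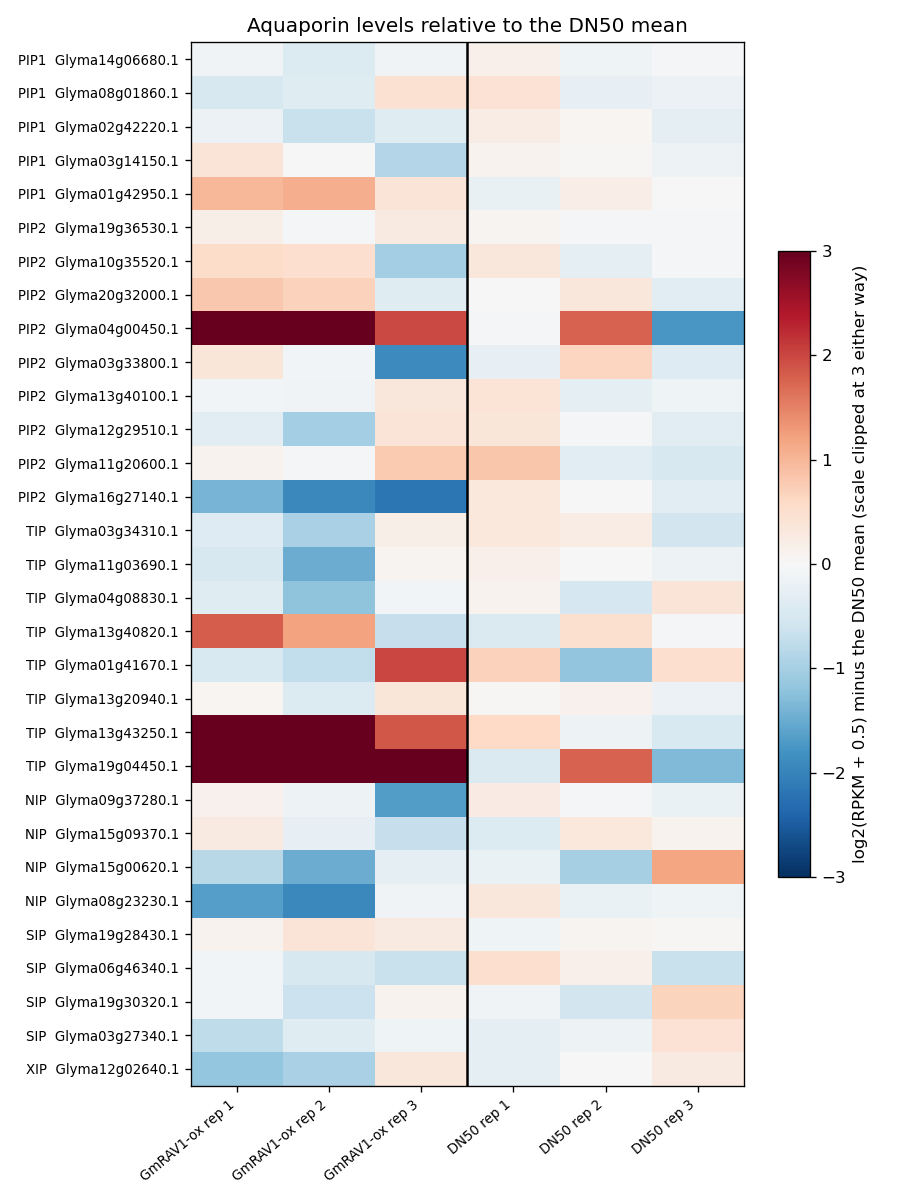
Level of the 31 tested aquaporin genes in each library as log2(RPKM + 0.5) minus the mean of the 3 DN50 libraries (colours clipped at 3 either way), GmRAV1-ox libraries left and DN50 libraries right of the line. Glyma16g27140.1 is blue in all 3 GmRAV1-ox columns and Glyma13g43250.1 and Glyma19g04450.1 are red in all 3, while Glyma13g40820.1 and Glyma20g32000.1 differ in sign between replicate 3 and replicates 1 and 2.

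Of the 18 genes with a KEGG aquaporin class outside the rule, 14 were tested. Of these, none passed the adjusted threshold by edgeR with all libraries, and 3 were higher and 2 lower at an unadjusted p under 0.05 (21.4% and 14.3%, where 10.6% and 10.7% of all genes were). DESeq2 called 3 of the 18, 2 higher and 1 lower, where it called 4.8% of all genes, 2.07% higher and 2.73% lower. In the fit without replicate 3 labelled GmRAV1-ox, edgeR called 2 of 15 higher and 1 lower (13.3% and 6.67%, where 8.62% and 9.66% of all genes were). The PIP1-4 gene Glyma11g02530.1 had 10.5, 8.25 and 4.67 RPKM in libraries labelled GmRAV1-ox, against 3.03, 2.96 and 2.14 RPKM in those labelled DN50 (log2 fold change 1.54, adjusted p = 0.0985 by edgeR with Benjamini-Hochberg adjustment). The PIP1-5 gene Glyma05g37730.1 had 91.0, 141 and 41.7 RPKM in libraries labelled GmRAV1-ox, against 32.3, 37.7 and 26.3 RPKM in those labelled DN50 (log2 fold change 1.51, adjusted p = 0.123 by edgeR with Benjamini-Hochberg adjustment). Neither gene overlapped between the groups, and both were chosen after their values were seen. Counts were not whole in all 6 libraries for Glyma05g37730.1 and in 3 for Glyma11g02530.1, so reads may be shared with similar genes. Both passed without replicate 3 labelled GmRAV1-ox, at adjusted p = 0.00687 for Glyma11g02530.1 and adjusted p = 0.00314 for Glyma05g37730.1 (edgeR, Benjamini-Hochberg).

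Proteins that work beside aquaporins were counted in lists taken from the same descriptions, and none of their genes passed the adjusted threshold by edgeR or limma with all libraries. DESeq2 called 5 plasma membrane proton pumps and 3 ammonium and urea transporters, all lower (2.73% of all genes), and 0 genes of the other lists of this kind. The counts at an unadjusted p under 0.05 below stand beside 10.6% of all genes higher and 10.7% lower. Of the vacuolar proton pumps, which energize the tonoplast, 31 of 34 genes were tested, with 0 higher and 2 lower (6.45%) and a median log2 fold change of -0.07. Of the plasma membrane proton pumps, 13 of 19 were tested, with 0 higher and 5 lower (38.5%) and a median of -0.61. Their summed level was 244 to 338 RPKM in libraries labelled GmRAV1-ox, against 400.3 to 489.9 RPKM in those labelled DN50. By edgeR 5 of 13 were called lower without replicate 3 labelled GmRAV1-ox (38.5%, where 9.66% of all genes were). Of the boron transporters, 7 of 11 were tested, with 1 higher (14.3%) and 2 lower (28.6%) and a median of 0.09. Of these 7, 2 were called higher without replicate 3 labelled GmRAV1-ox (28.6%, where 8.62% of all genes were). The calcium pumps that the proton pump wording also matched gave 11 tested genes, with 0 higher and 1 lower (9.09%) and a median of -0.17. These medians carry the shift of all genes between scalings given above.

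Ammonium and urea transporters, whose substrates some TIPs also pass, gave 6 tested genes of 12, with 0 higher and 4 lower at an unadjusted p under 0.05 (66.7%, where 10.7% of all genes were) and a median of -1.64. Without replicate 3 labelled GmRAV1-ox, edgeR called 4 of the 6 lower (66.7%, where 9.66% of all genes were). Their summed level was 31.7 to 48.2 RPKM in libraries labelled GmRAV1-ox, against 76.8 to 217 RPKM in those labelled DN50. Glyma10g31080.1, an ammonium transporter 1 gene, had 13.4, 10.8 and 7.76 RPKM in libraries labelled GmRAV1-ox, against 49.0, 28.7 and 81.9 RPKM in those labelled DN50 (log2 fold change -2.31, adjusted p = 0.0602 by edgeR with Benjamini-Hochberg adjustment). It passed without replicate 3 labelled GmRAV1-ox (log2 fold change -2.15, adjusted p = 0.0163 by edgeR). The groups did not overlap, and the gene was chosen after its values were seen. The water-deficit list held 6 late embryogenesis abundant genes and no dehydrin. With all 6 libraries none of them had enough counts for a test. Their summed level was 5.22 to 19.1 RPKM in libraries labelled GmRAV1-ox and 3.52 to 10.4 RPKM in those labelled DN50. Glyma15g15990.1, described as Lea5, had 9.67, 18.4 and 3.79 RPKM in libraries labelled GmRAV1-ox, against 3.54, 1.4 and 1.73 RPKM in those labelled DN50. Without replicate 3 labelled GmRAV1-ox it was the 1 gene of the list tested. It was called higher (log2 fold change 2.64, adjusted p = 0.0108 by edgeR with Benjamini-Hochberg adjustment), where 8.62% of all genes were. Glyma18g51370.1 of the same list was not tested. It had 0, 0 and 1.43 RPKM in libraries labelled GmRAV1-ox, against 5.34, 2.12 and 1.31 RPKM in those labelled DN50.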

How the data were processed

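RNA from 6 leaf libraries was sequenced, 3 per label. The authors deposited an estimated count (expected count) per gene for each library, together with FPKM and gene length, per the file headers. Between 29.6% and 30.5% of the counts above 0 are not whole. All lengths are multiples of 3, so they are coding lengths. Per the submitters' processing notes, TopHat and Cufflinks were used. Their versions, the genome build and the annotation are not named in the sources used.

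Counts were rounded and filtered with filterByExpr, leaving 26272 of 36827 genes, in R 4.3.3 with edgeR 4.0.16. Groups were compared by the robust quasi-likelihood test with TMM factors (0.849 to 1.17), 2-sided, with p-values adjusted (Benjamini-Hochberg) across every tested gene and called under 0.05. Alternatives used DESeq2 1.42.0 and limma 3.58.1, and the test was checked on simulated data. The members and lists were chosen with earlier results of these data known.

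Genes named in the text are those past the threshold, the 3 most abundant of each type, the 6 others with the smallest p and the largest estimate of each type, plus genes said to be chosen after their values were seen. Outside that rule, the other tested members, the nodulin-26 precursor and the RAV genes were added with their values known. The same holds for the Lea5 gene, Glyma18g51370.1 and the abundant genes Glyma19g37000.1, Glyma13g29690.1 and Glyma18g49410.1. The wording of types was extended to PIP-type and TIP-type after the descriptions were read. Of the 51 genes, 33 matched RefSeq (Glycine_max_v4.0) by protein accession and chromosome, 26 with an aquaporin name; that table served for names. The nodule list took 2 leghemoglobin reductases beside nodulin-16, and the root list only root hair defective proteins; edgeR called 0 of either (medians -0.18 and -0.16; 0 at an unadjusted p under 0.05, 0 by DESeq2). The proton pump pattern took 15 calcium pumps, which were counted apart.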

Additional observations from a re-analysis of the deposited data

How the results depend on the processing

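Of the 31 tested aquaporin genes, 1 was called with all 6 libraries by edgeR. The count was 4 with the DESeq2 Wald test (50 genes with a p; 3 higher, 1 lower; 4.8% of all genes), 0 with limma on log2(FPKM + 1) without a filter (6 at an unadjusted p under 0.05; 11 genes called in the whole table) and 0 to 6 when single libraries were left out. In the 4 edgeR fits with 0 calls, 4 to 7 aquaporin genes had an unadjusted p under 0.05 (12.9% to 22.6%, where 12.3% to 14.5% of all genes had), and 0 genes of the whole table were called. It was 1 with every other alternative but the replicate block. Over 28 named genes and 16 fits, no called gene changed direction; 6 values lost and 11 gained a call, and 18 uncalled estimates changed sign. Glyma16g27140.1 kept its call in 10 of 16 fits (adjusted p 1.5e-05 to 0.206). With deposited FPKM in place of TMM-scaled RPKM, the ratio of summed levels, GmRAV1-ox over DN50, became 1.14 for PIPs and 1.13 for SIPs. With the KEGG genes outside the rule added, an alternative chosen after seeing the data, it became 1.12 for NIPs, with Glyma13g29690.1 at 64.3, 50.6 and 20.6 RPKM in GmRAV1-ox libraries and 8.02, 41.9 and 12.6 RPKM in DN50 libraries. Leaving out single libraries gave ratios of 0.62 to 0.831 for NIPs and 0.651 to 0.945 for TIPs. The cause of these shifts was not tested. The planned comparison of protein identity between close paralogs was not run. Depth limits the genes with few counts, 20 of which could not be tested.

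The labels do not say whether the replicate numbers pair the libraries. Deviations from the group means correlated by -0.301, 0.398 and 0.295 for numbers 1, 2 and 3, and pairing was not tested. A replicate block gave 3 calls of 31 (2 higher, 1 lower), where it called 6.17% of all genes (2.6% higher, 3.57% lower), adding Glyma04g00450.1 and Glyma13g43250.1 (adjusted p = 0.00413 each, edgeR).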
